A study of Mus musculus with 12 samples.

Results

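The genes described here are 9 complement and acute-phase genes, C1RA, C4B, CFB, C3, SERPING1, CD55, CD59A, LCN2 and SAA3, taken by symbol from the 23636 gene symbols of an RNA-seq table. CT26 cells, an established mouse colon carcinoma line, were sequenced after 8 hours in 4 groups of 3 biological replicates, 12 libraries in all. The groups were No treatment, recombinant CX3CL1 at 2 µg/ml, IFN-γ at 100 ng/ml, and CX3CL1+IFN-γ at these same concentrations. The labels name no other agent and no genetic change, whereas the study's text at 1 point also names TNF-α for the cells given IFN-γ, so whether TNF-α was present in the groups with IFN-γ is not known. The same text places CX3CL1 after IFN-γ, whereas a figure legend gives both for 8 hours. Whether CX3CL1 and IFN-γ were added together or in turn is therefore not known. All libraries came from this 1 line, and no vehicle is named for the untreated cells. The values are TPM, shares of a fixed total of transcripts that are scaled by transcript length, so levels can be compared between genes but the read depth of a library is unknown. Of the 9 genes, 7 reached the mean of 0.2 TPM over all libraries that was asked of the genes tested, while CD55 and CD59A did not.

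Complement is a cascade of plasma proteins. In the classical pathway the proteases C1r and C1s are bound to C1q, and C1r activates C1s, which cleaves C4 and C2. Factor B drives the alternative pathway, and both routes meet at C3, the central protein whose cleavage labels surfaces for uptake. C1 inhibitor (SERPING1) blocks C1r and C1s, CD55 speeds the decay of the enzymes that cleave C3, and CD59 stops the membrane attack complex. LCN2 (lipocalin 2) binds iron-carrying siderophores and SAA3 is a serum amyloid A protein, and both are acute-phase genes that rise in epithelium and other cells during inflammation. GAS and ISRE elements are DNA motifs found before interferon-induced genes, while many acute-phase genes answer to NF-kB and C/EBP factors.

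The sequence before the RefSeq start is shown for SAA3, LCN2 and C3, the genes with the highest ratio of means between CX3CL1 and no treatment, because all 3 hold a C/EBP-type match. They were picked by their levels and by the match itself, so the shared match supports nothing about how CX3CL1 acts. The 250 bases before the start were searched in RefSeq sequences of GRCm38.p6, the same build as the mm10 genome of the study. The stretches printed stop where GENCODE marks an untranslated region, are read 5′ to 3′ on the strand of the gene, and are chr7:46715701-46715926, chr2:32387798-32387989 and chr17:57228137-57228386, all on the minus strand. Capitals mark matches to TTGCNNAA (C/EBP, either strand) and, first in SAA3, to the core of an interferon-stimulated response element (ISRE).
SAA3: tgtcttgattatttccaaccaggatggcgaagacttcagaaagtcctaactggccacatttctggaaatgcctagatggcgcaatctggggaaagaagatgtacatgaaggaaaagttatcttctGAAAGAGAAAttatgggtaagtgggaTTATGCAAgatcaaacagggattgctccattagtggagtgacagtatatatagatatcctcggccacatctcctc
LCN2: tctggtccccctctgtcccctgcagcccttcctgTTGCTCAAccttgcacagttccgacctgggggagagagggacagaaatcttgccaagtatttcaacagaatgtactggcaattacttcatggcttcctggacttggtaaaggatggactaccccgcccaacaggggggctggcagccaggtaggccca
C3: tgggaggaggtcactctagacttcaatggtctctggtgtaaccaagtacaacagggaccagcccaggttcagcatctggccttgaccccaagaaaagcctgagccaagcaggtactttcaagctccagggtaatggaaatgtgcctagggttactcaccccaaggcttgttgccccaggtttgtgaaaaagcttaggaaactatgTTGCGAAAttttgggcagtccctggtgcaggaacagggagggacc
The GENCODE gene of LCN2 starts further upstream than the RefSeq entry, so the LCN2 stretch lies inside that gene model and partly in an exon of another of its transcripts. The C/EBP match lay 99 to 92 bases before the RefSeq start in SAA3 (on the opposite strand), 216 to 209 bases before it in LCN2 and 45 to 38 bases before it in C3. The ISRE match of SAA3 lay 125 to 116 bases before the start. Of 32851 promoter windows of 250 bases, 9.56% held the C/EBP letters, 2.98% the ISRE core, 7.02% the GAS letters TTCNNNGAA and 3.9% the NF-kB consensus, each searched on both strands. Promoter entries were found for 6 of the 9 genes (C1RA, C3, CD55, CD59A, LCN2 and SAA3). None of these 6 windows held the GAS letters or the NF-kB consensus, which says only that these letters are not in these windows. The CD59A window held an ISRE core match, and those of C1RA and CD55 held none of the 4 motifs. Most of the C1RA window (chr6:124512371-124512620) lies inside the GENCODE gene, which starts at 124512405. The absence of motifs therefore describes that window and not the sequence before the GENCODE start. The C1RB window (chr6:124570180-124570429) also runs into its GENCODE gene, which starts at 124570294. It held a GAS match 119 to 111 bases and a C/EBP match 135 to 128 bases before the RefSeq start, both inside that gene model. C1RA has a near copy, C1RB: the last 99 bases of the C1RA window and the first 99 bases of the C1RB window were identical at 93 positions (93.9%).

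The treatments were visible in their usual target genes. NFKBIA, an NF-kB target, went from a mean of 16.8 TPM without treatment to 85.3 with CX3CL1 (log2 difference 2.25, SE 0.30, adjusted p = 0.00131 by limma), and IRF1, an IFN-γ target, from 19.6 to 107 TPM with IFN-γ (2.31, SE 0.28, adjusted p = 1.5e-04). The receptor chains IFNGR1 (23.9 TPM in the IFN-γ group) and IFNGR2 (45.1 TPM) were present, whereas CX3CR1, the receptor of CX3CL1, lay between 0 and 0.154 TPM in all 12 libraries. These are RNA levels, whereas the study reported high CX3CR1 on cultured CT26 cells by flow cytometry with its antibody. Of the epithelial markers, EPCAM was listed at 0 in all libraries and only KRT18 and KRT20 of 9 had a mean of at least 1 TPM, while all 5 mesenchymal markers listed, VIM and FN1 among them, did. A value of 0 can be a failed estimate in this table, since RPL26, a ribosomal protein gene picked with its values known, stood at 0 throughout.

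Among the classical pathway genes, C1RA, a protease of the C1 complex, was present before any treatment and rose about 6 times with IFN-γ. C1RA had 27.4, 15.6 and 21.6 TPM in the untreated libraries, 42.7, 28.9 and 36.6 TPM with CX3CL1, 149, 92.3 and 142 TPM with IFN-γ, and 198, 111 and 163 TPM with CX3CL1+IFN-γ. All libraries with IFN-γ lay above all libraries without it, and the 3 CX3CL1 libraries lay above the 3 untreated ones. The mean rose from 21.5 ± 5.87 to 128 ± 30.9 TPM (SD, n = 3) with IFN-γ, a ratio of 5.93 and a difference of 2.52 (SE 0.25) on the log2(TPM + 1) scale used for all tests (limma, adjusted p = 3.2e-05). With CX3CL1 alone the mean was 36.1 ± 6.95 TPM and the log2 difference of 0.73 (SE 0.25) did not pass the test (adjusted p = 0.284).

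C4B, the thioester protein that C1s cleaves, was near 0 without IFN-γ and rose with it. C4B had 0.328, 0.0202 and 0.0377 TPM without treatment and 0.26, 0.0231 and 0.0946 TPM with CX3CL1. With IFN-γ the values were 30.6, 6.54 and 15.7 TPM, and with CX3CL1+IFN-γ 26.8, 5.54 and 14 TPM. The CX3CL1 libraries lay inside the untreated range, and every library with IFN-γ stood far above them. The mean went from 0.129 ± 0.173 to 17.6 ± 12.1 TPM with IFN-γ, with a log2 difference of 3.82 (SE 0.50, adjusted p = 2.6e-04). The ratio of these means, 137, rests on values near 0, and the ratios of libraries with the same number ran from 93.3 to 417.

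CFB, the protease of the alternative pathway, had the highest log2 difference of the 7 genes tested with IFN-γ. CFB had 0.949, 0.112 and 0.251 TPM without treatment, 1.29, 0.696 and 1.64 TPM with CX3CL1, 56.6, 21 and 41.5 TPM with IFN-γ, and 59.6, 21.6 and 44.5 TPM with CX3CL1+IFN-γ. CX3CL1 replicate 2 lay below the highest untreated library, and the 2 groups with IFN-γ covered nearly the same range. The mean rose from 0.437 ± 0.448 to 39.7 ± 17.9 TPM with IFN-γ (log2 difference 4.76, SE 0.39, adjusted p = 7.6e-06).

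C3 rose with either agent. C3 had 2.44, 0.468 and 0.658 TPM without treatment, 18.6, 8.29 and 10.6 TPM with CX3CL1, 50.3, 13.1 and 20.1 TPM with IFN-γ, and 75.3, 20.4 and 26.5 TPM with CX3CL1+IFN-γ. Every treated library lay above every untreated library, whereas the CX3CL1 and IFN-γ groups overlapped, as did the IFN-γ and CX3CL1+IFN-γ groups. The mean went from 1.19 ± 1.09 TPM to 12.5 ± 5.41 with CX3CL1 (log2 difference 2.66, SE 0.53, adjusted p = 0.0181) and to 27.8 ± 19.7 with IFN-γ (3.61, SE 0.53, adjusted p = 7.6e-04).

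Of the regulators, SERPING1 rose with IFN-γ at a low level. SERPING1 had 0.563, 0.203 and 0.403 TPM without treatment, 0.404, 0.309 and 0.361 TPM with CX3CL1, 5.74, 2.45 and 3.49 TPM with IFN-γ, and 6.32, 2.37 and 4.21 TPM with CX3CL1+IFN-γ. The CX3CL1 libraries lay inside the untreated range and all libraries with IFN-γ lay above it. The mean rose from 0.39 ± 0.181 to 3.89 ± 1.68 TPM with IFN-γ (ratio 9.99, log2 difference 1.77, SE 0.26, adjusted p = 8.5e-04). The surface regulators were not measured at a level that allows a comparison. CD55 and its copy CD55B were listed at 0 in all 12 libraries. CD59A was listed at 0.0643 and 0.0244 TPM in untreated replicates 1 and 3 and at 0.0211 TPM in CX3CL1+IFN-γ replicate 1, and at 0 in the others, and its copy CD59B had at most 0.0735 TPM. CR1L, the mouse regulator also called Crry, which was on the list of other complement genes, had 55.8 to 85.3 TPM.

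The acute-phase genes reached the highest levels, and their means were highest with CX3CL1+IFN-γ. LCN2 had 44.9, 3.62 and 19.3 TPM without treatment and 215, 54.7 and 152 TPM with CX3CL1. With IFN-γ it had 587, 42.4 and 98.9 TPM, and with CX3CL1+IFN-γ 1416, 188 and 473 TPM. The CX3CL1 libraries lay above the untreated ones, but IFN-γ replicate 2 fell below untreated replicate 1, so those groups overlapped. By mean, LCN2 moved from rank 5844 of the 23636 symbols without treatment (22.6 ± 20.8 TPM) to rank 200 with CX3CL1+IFN-γ (692 ± 643 TPM).

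SAA3 had 6.76, 1.15 and 4.98 TPM without treatment, 60.3, 16.9 and 32.8 TPM with CX3CL1, 175, 68.1 and 82.8 TPM with IFN-γ, and 636, 167 and 241 TPM with CX3CL1+IFN-γ. The libraries rose in that order without overlap, except that CX3CL1+IFN-γ replicate 2 lay below IFN-γ replicate 1. The mean went from 4.3 ± 2.87 TPM to 36.7 ± 22 with CX3CL1 (log2 difference 2.85, SE 0.59, adjusted p = 0.023) and 109 ± 57.9 with IFN-γ (4.44, SE 0.59, adjusted p = 3.2e-04). Its relatives SAA1 and SAA2 had at most 0.207 and 0.366 TPM in any library. LCN2 and SAA3 together gave between 22.5% and 84.8% of the summed TPM of the 9 genes in a library.

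**Figure D1:**
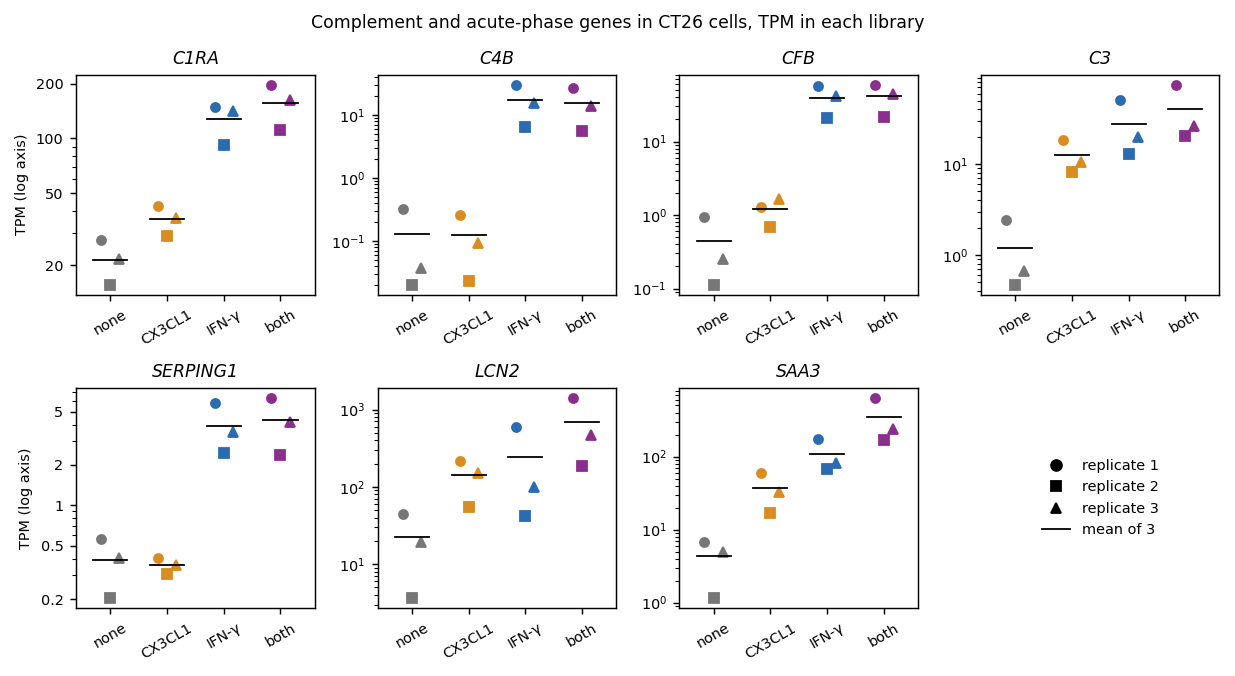
TPM of the 7 genes tested in each library, on a log axis of its own for each gene. Colours are the 4 groups, symbols the replicate number and bars the arithmetic mean of 3. C4B, CFB and SERPING1 had means with CX3CL1+IFN-γ close to those with IFN-γ. C1RA had a mean of 157 TPM with both agents against 128 with IFN-γ. LCN2 and SAA3 had means of 692 and 348 TPM with both agents against 243 and 109 with IFN-γ.

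IFN-γ against no treatment asked what IFN-γ did to these genes. C1RA, C4B, CFB, C3, SERPING1 and SAA3 rose, 6 of the 7 genes tested, where 5.91% of all 11878 genes tested were called higher. The median log2 difference was 3.61 over the 7 genes and 0.03 over all genes. C4B passed the filter only through the groups with IFN-γ, so the count and the median describe the 7 genes and support nothing further. LCN2 had a difference of 3.07 (SE 1.02) and did not pass (adjusted p = 0.0915). With the replicate number as a block it did (adjusted p = 8.7e-05), where 11.4% of all genes were called higher. The same 6 genes had no overlap between groups in this direction, against 20.6% of all genes. These 6 calls held in each of the 15 alternatives run, with the lowest log2 difference at 1.51, for SERPING1. In these cultures, more cells in a responding state and more RNA per cell cannot be told apart.

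CX3CL1 against no treatment asked the same of CX3CL1. C3 and SAA3 rose, 2 of the 7 genes, where 1.78% of all genes were called higher. LCN2 had a mean of 141 ± 80.8 TPM against 22.6 ± 20.8 (log2 difference 2.91, SE 1.02, adjusted p = 0.306) and did not pass. CFB differed by 0.64 (SE 0.39, adjusted p = 0.877), and by 1.54 with a pseudocount of 0.1 (adjusted p = 0.321). C4B and SERPING1 differed by 0.00 (95% interval -1.07 to 1.08) and -0.03 (-0.60 to 0.55), which leaves room for changes in either direction. Groups did not overlap for C1RA, C3, LCN2 and SAA3, all 4 higher with CX3CL1, against 5.5% of all genes. The 2 calls rest on few libraries: neither C3 nor SAA3 passed without CX3CL1 replicate 1, CX3CL1 replicate 3, untreated replicate 2 or untreated replicate 3, or with no filter on low TPM. Over all 15 alternatives the adjusted p reached 0.105 for C3 and 0.115 for SAA3, while the log2 difference stayed at 2.35 or more for C3 and 2.29 or more for SAA3.

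**Figure D2:**
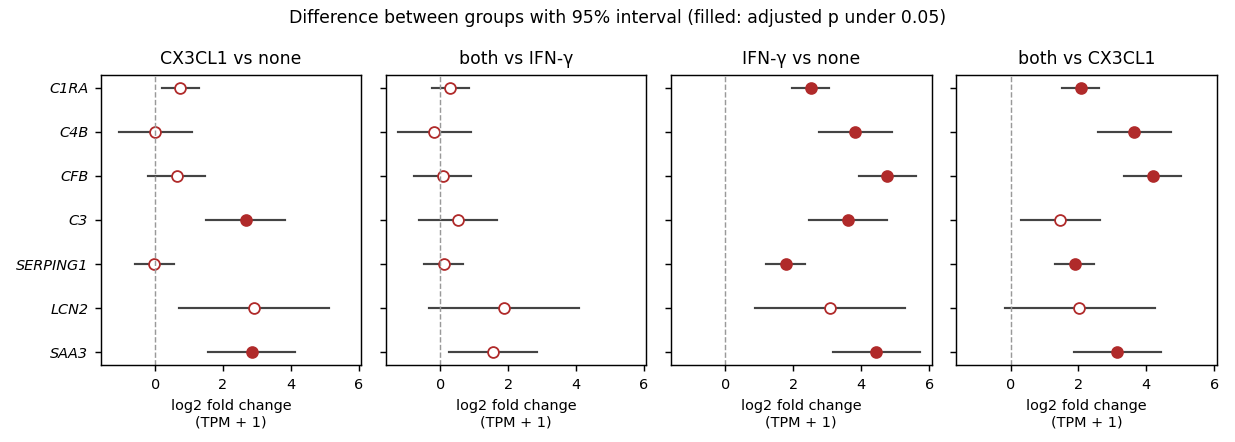
Differences between groups on the log2(TPM + 1) scale for the 7 genes in the 4 comparisons. Points are the limma estimates, lines their 95% intervals, and filled points passed an adjusted p of 0.05. IFN-γ against no treatment has 6 filled points, CX3CL1 against no treatment 2, CX3CL1+IFN-γ against CX3CL1 5, and CX3CL1+IFN-γ against IFN-γ none.

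CX3CL1+IFN-γ against IFN-γ asked whether CX3CL1 added to IFN-γ. None of the 7 genes passed by limma, where 0.345% of all genes were called higher. At an unadjusted p under 0.05 by limma 1 did, SAA3, where 4.35% of all genes did in either direction. SAA3 differed by 1.56 (SE 0.59, adjusted p = 0.886) and LCN2 by 1.88 (SE 1.02, adjusted p = 0.975). SAA3 had 1.01 without CX3CL1+IFN-γ replicate 1. LCN2 had 1.05 without IFN-γ replicate 2, 1.13 without CX3CL1+IFN-γ replicate 1 and 2.93 without IFN-γ replicate 1. The groups overlapped for all 7 genes, where 8.54% of all genes were higher without overlap. Both SAA3 and LCN2 were higher in all 3 pairs of libraries with the same number, by 2.46 to 3.63 times for SAA3 and 2.41 to 4.78 times for LCN2. With the replicate number as a block both passed, SAA3 with an adjusted p of 0.00353 and LCN2 with 0.0223, where 0.749% of all genes were called higher. Without the block, the 95% interval of the difference was 0.27 to 2.84 for SAA3. For LCN2 (-0.33 to 4.08) and for the 5 other genes the interval included 0. It was -0.25 to 0.84 for C1RA, -1.25 to 0.90 for C4B, -0.77 to 0.91 for CFB, -0.64 to 1.67 for C3 and -0.47 to 0.67 for SERPING1. In the same-numbered pairs C3 was 1.32 to 1.56 times, C1RA 1.15 to 1.33 times and CFB 1.03 to 1.07 times as high with both agents, SERPING1 0.966 to 1.21 times and C4B 0.848 to 0.894 times. With the block the interval was 0.18 to 0.86 for C3 and 0.11 to 0.47 for C1RA, but neither passed (adjusted p = 0.278 and 0.232 by limma).

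CX3CL1+IFN-γ against CX3CL1 asked what IFN-γ added to CX3CL1. C4B, CFB, C1RA, SERPING1 and SAA3 rose by limma, 5 of the 7, where 3.76% of all genes were called higher. The differences were 4.19 for CFB, 3.64 for C4B, 3.15 for SAA3 (adjusted p = 0.00811), 2.07 for C1RA and 1.89 for SERPING1. C3 differed by 1.47 (SE 0.53, adjusted p = 0.157) and LCN2 by 2.03 (SE 1.02, adjusted p = 0.327). With the block C3 (adjusted p = 2.0e-04) and LCN2 (adjusted p = 0.00244) passed too, where 8.71% of all genes were called higher. C3 was 2.47 to 4.05 times higher in the 3 same-numbered pairs. For 6 of the 7 genes, all but LCN2, the groups did not overlap, against 14% of all genes. C4B passed the filter only through the groups with IFN-γ, so the counts in this comparison describe the 7 genes and support nothing further. This comparison and the one before it share the CX3CL1+IFN-γ libraries, and the first 2 share the untreated ones.

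The interaction, which is the effect of CX3CL1 with IFN-γ minus its effect without, was called for 0 of the 7 genes and for 0 of 11878 genes by limma (0%), with 273 genes (2.3%) at an unadjusted p under 0.05. Of the 7 genes, C3 was among these. Its estimate was -2.14 (SE 0.75, 95% interval -3.77 to -0.51, adjusted p = 1 by limma), from effects of CX3CL1 of 2.66 without and 0.52 with IFN-γ.

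The libraries of a replicate number moved together in these genes. Replicate 2 was the lowest of 3 in all 4 groups for 7 of the 7 genes, where 6.34% of the genes tested had that pattern. Replicate 1 was the highest in all 4 groups for 6 of the 7, all but CFB, where 15.6% of the genes tested had it. In LCN2 the spread was widest, with IFN-γ replicate 1 at 587 TPM against 42.4 in replicate 2. CD68, a lysosomal marker of macrophages, was also highest in replicate 1 of each group (16.2, 20, 19.7 and 27 TPM), a pattern of 15.6% of the genes tested. S100A8, the other leukocyte marker with a mean of at least 1 TPM, was at 0 in replicate 1 without treatment and with CX3CL1. In the groups with IFN-γ its replicate 1 was the highest (3.11 TPM with IFN-γ and 6.6 with CX3CL1+IFN-γ). CD68 made up most of the summed level of the 14 leukocyte markers, which ran from 9.99 to 18 TPM without treatment, 9.01 to 22.4 with CX3CL1, 11.6 to 24.5 with IFN-γ and 11.2 to 34.8 with CX3CL1+IFN-γ. PTPRC, found on all leukocytes, had at most 0.0441 TPM, and TYROBP, CD3E and NCR1 were listed at 0. The 6 hepatocyte markers summed to between 0.524 and 2.7 TPM, with ALB, TTR and AHSG at 0. The part of these markers in the results was not tested.

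**Figure D3:**
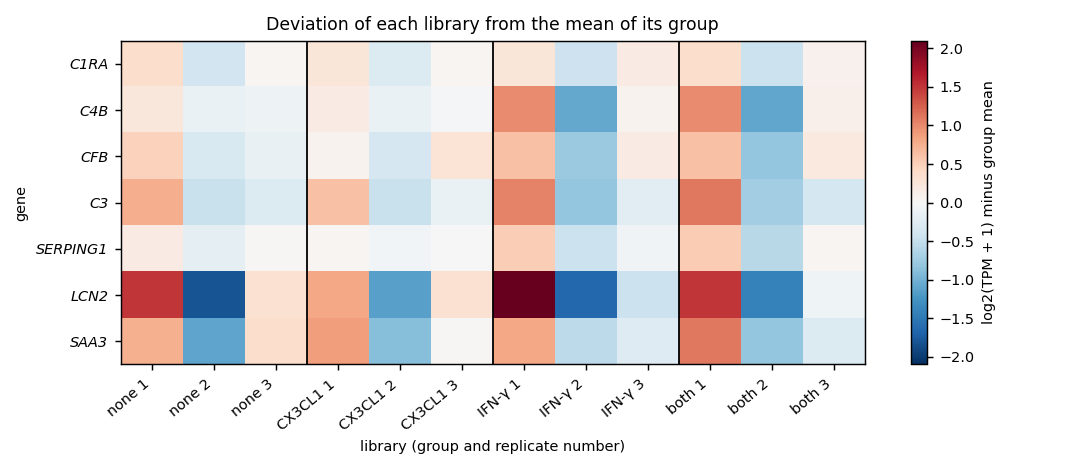
Deviation of each library from the mean of its group for the 7 genes, in log2(TPM + 1), with red above and blue below the mean. Libraries are ordered by group and then by replicate number. Replicate 2 is the lowest of its group for every gene, and LCN2 has the widest spread.

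Correlations of level between the 7 genes over the 12 libraries are given as a description, because the libraries share groups and replicate numbers. C4B and SERPING1 were most alike (Pearson r = 0.995), CFB and C1RA had r = 0.986, and C3 and SAA3 had r = 0.967. C1RA had r = 0.946 with SAA3 and 0.901 with C3, and C3 had 0.929 with LCN2. The lowest value was 0.697, for C4B and LCN2. Of 530 other genes whose group means differed by at least 1 on the log2 scale, those most like C4B were MPEG1 (r = 0.995) and MS4A4D (0.993), and MPEG1, a pore-forming protein of phagocytes, had means of 0.131, 0.214, 22.9 and 23.9 TPM in the order No treatment, CX3CL1, IFN-γ and CX3CL1+IFN-γ. MS4A4D (0.993) and MPEG1 (0.992) were also the nearest to SERPING1, and LY6C1 (0.995) and MPEG1 (0.99) to CFB. H2-Q2, an MHC class I gene (0.991), and C1S2 (0.99) were nearest to C1RA. PDPN, a membrane glycoprotein, was nearest to both C3 (0.973) and SAA3 (0.974), with means of 46, 117, 245 and 423 TPM in the same order, followed by CASP4 for C3 (0.961) and U90926 for SAA3 (0.973).

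Other complement genes were read from a list of 56, of which 52 were in the table, 14 were at 0 in every library and 18 were tested. With IFN-γ 7 of the 18 rose (C1RB, C1S1, C1S2, C4A, C9, FCNA and CD93) and none fell, where 5.91% of all genes were called higher. With a filter at a mean of 1 TPM the count was 4. The median of the 18 was 0.28, against 0.03 over all genes. C1S1, the protease that C1r activates, had 35.6, 14.5 and 16.1 TPM without treatment and 233, 177 and 264 TPM with IFN-γ (log2 difference 3.39, SE 0.31, adjusted p = 1.4e-05), with no overlap. C1RB, at 4.69 ± 1.22 TPM with IFN-γ, and C4A, at 0.725 ± 0.413 TPM, were far below C1RA and C4B, and how reads of near copies were divided is not known. C9, FCNA and CD93 were called on small differences (0.44, 0.39 and 0.68), with C9 below 0.5 TPM in every library. C9 and C4A, like C4B above, had means under 0.2 TPM in both groups without IFN-γ and passed the filter only through the groups with it, so these calls support nothing about the list. Leaving out 1 library gave 5 or 6 calls on the list. In CX3CL1+IFN-γ against CX3CL1, 5 of the 18 rose (C1RB, C1S1, C1S2, C9 and CD93), where 3.76% of all genes were called higher, and 3 rose with the filter at 1 TPM. With the block (8.71% of all genes higher in that comparison and 11.4% in IFN-γ against no treatment), C1RL and C4A rose as well in that comparison, which makes 7, and CR1L rose in IFN-γ against no treatment, which makes 8. In both of these block fits MASP1, a protease of the lectin pathway, and CLU (clusterin), an inhibitor of the membrane attack complex, fell, from means of 35.5 and 11.1 TPM without treatment to 25.6 and 6.5 TPM with IFN-γ, and from 26.4 and 8.33 TPM with CX3CL1 to 17 and 4.36 TPM with both agents. Over all genes, the block called 4.85% lower in IFN-γ against no treatment and 2.81% lower in CX3CL1+IFN-γ against CX3CL1. In CX3CL1 against no treatment and in CX3CL1+IFN-γ against IFN-γ 0 of the 18 passed by limma (2 and 3 at an unadjusted p under 0.05, and 2 and 0 with the block). Of all genes, 8.07% and 4.35% had such an unadjusted p in these comparisons, in either direction. With the block 2.92% and 0.749% of all genes were called higher in them. The genes of C1q (C1QA, C1QB, C1QC), C2, CFD, HC (the mouse C5 gene) and CFI were all at a mean below 0.05 TPM over the 12 libraries.

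Other acute-phase genes were read from a list of 45, all in the table, of which 18 were at 0 in every library and 12 were tested. With IFN-γ 3 of the 12 rose, SERPINA3F, SERPINA3G and MT2, where 5.91% of all genes were called higher. Leaving out 1 library gave between 1 and 3 calls, the fewest without IFN-γ replicate 3. SERPINA3F and SERPINA3G, serine protease inhibitors of a family of near copies, were listed at 0 in the 3 untreated libraries and had means of 1.58 and 3.74 TPM with IFN-γ. They and SERPINA3H passed the filter only through the groups with IFN-γ, so their calls support nothing about the list. MT2, a metallothionein, went from 1185 ± 126 to 2465 ± 279 TPM (log2 difference 1.05, SE 0.13, adjusted p = 2.0e-04). In CX3CL1+IFN-γ against CX3CL1, these 3 and SERPINA3H rose, 4 of 12, where 3.76% of all genes were called higher, and 2 rose with the filter at 1 TPM. The block added SERPINA3H in IFN-γ against no treatment and HP (haptoglobin) in CX3CL1+IFN-γ against CX3CL1. In CX3CL1 against no treatment and in CX3CL1+IFN-γ against IFN-γ 0 of 12 passed by limma (1 and 3 at an unadjusted p under 0.05, and 1 and 0 with the block). The shares of all genes were 8.07% and 4.35% at that unadjusted p in either direction, and 2.92% and 0.749% higher with the block. The liver genes CRP, APCS, FGA and ORM1 were at 0 throughout.

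**Figure D4:**
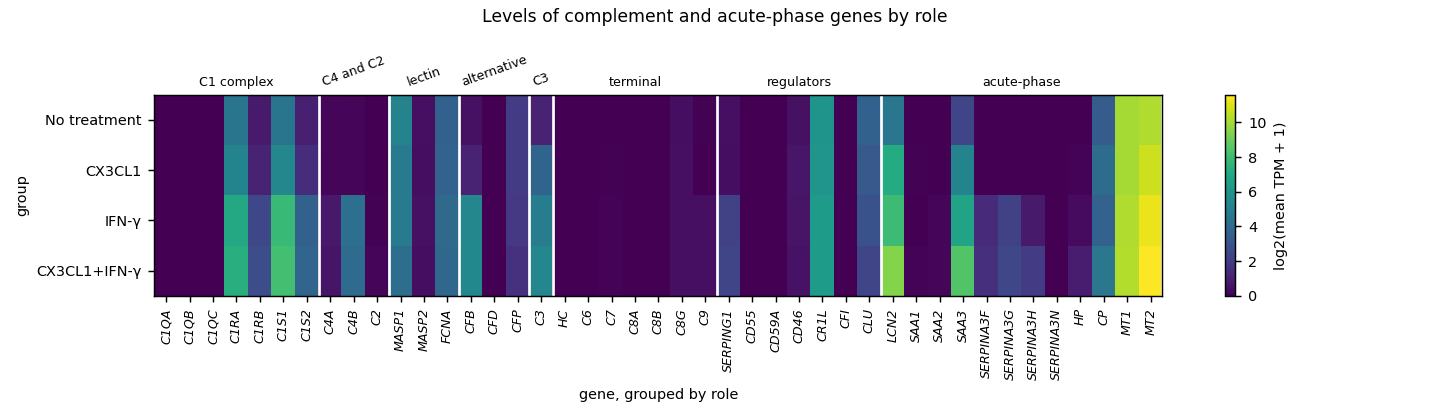
Mean level of complement and acute-phase genes in each group, as log2(mean TPM + 1), with genes ordered by role. The C1 proteases C1RA and C1S1 were present in all groups, C4B, CFB and C3 were brighter in the 2 groups with IFN-γ, and C1q and most terminal component genes stayed dark.

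In GENCODE vM21 on GRCm38, C1RA lies at chr6:124512405-124523443 and C3 at chr17:57203970-57228136. C4B (chr17:34728380-34743882) and CFB (chr17:34856374-34862518) lie on the same chromosome as C3, all 3 on the minus strand, with C4A between C4B and CFB. LCN2 is at chr2:32384633-32388252, SERPING1 at chr2:84765387-84775444 and CD59A at chr2:104095801-104115354. SAA3 is at chr7:46711998-46715700 and CD55 at chr1:130439027-130462744. The CFB locus is overlapped on the same strand by the protein-coding model Gm20547, so the counting of reads there is uncertain.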

How the data were processed

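RNA was sequenced from 12 CT26 libraries, 4 groups of 3 that the labels call biological replicates. Strand-specific mRNA libraries were made by the authors, who aligned the reads to mm10 and counted genes with STAR 2.7.3a in the VIPER pipeline, and tested counts with DESeq2 1.22.1. What was deposited is TPM, with a sum of 1000000 in each library over 23636 symbols (6747 at 0 throughout, 26 turned into dates, 2 duplicated). The step from counts to TPM, the annotation and the strand setting of the counting are not given in the sources used here. Each library had 10613 to 10824 symbols at 1 TPM or more, and replicates of a group correlated at 0.984 to 0.996. TPM keep no depth, so precision comes from the replicates alone, and counts were not used here.

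Tests used limma 3.58.1 in R 4.3.3 (lmFit and eBayes with trend, two-sided) on log2(TPM + 1), pseudocount 1, which understates changes of low genes. All 12 libraries and the 11878 genes that averaged 0.2 TPM or more entered 1 fit, with Benjamini-Hochberg adjustment over these genes in each comparison and a threshold of 0.05. The design planned for TPM applied. The fit was tested on simulated data. An exact permutation test of 3 against 3 cannot go below 0.1 and was not run. Python 3.11.15 with pandas 2.3.3 made the tables and matplotlib 3.10.9 the figures.

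The 9 genes and the lists were chosen with earlier results of these data known. Named genes are the 9, their near copies, list genes called in a pairwise comparison, the treatment checks, and for each of the 9 called anywhere the 2 genes with the highest correlation. Other genes are named as markers or as absent list members. The fit was repeated with a replicate block, without the trend, on only the libraries compared, after quantile normalization or median-ratio scaling, with a filter at 1 TPM or none, with pseudocount 0.1, and without each library. Leaving out replicate 1 of all 4 groups was added after seeing the data.

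The labels number replicates alike but do not say what a number shares. The pairing rests on deviations from group means, which correlated across genes at 0.22 to 0.46 for No treatment and IFN-γ, 0.63 to 0.649 for IFN-γ and CX3CL1+IFN-γ, and 0.351 to 0.428 for CX3CL1 and CX3CL1+IFN-γ. For No treatment and CX3CL1 they ran from 0.00472 to 0.387, below the 0.1 asked of every pair, so that comparison is not taken as paired. No treatment and CX3CL1+IFN-γ also fell below it (0.0324 to 0.447). The block was fitted over all 4 groups at once, so every block result, that of the interaction included, assumes a pairing that these groups did not meet.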

Additional observations from a re-analysis of the deposited data

How the results depend on the processing

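The estimates for the 7 genes tested were recomputed under 15 alternatives in each pairwise comparison and 20 for the interaction, which gave 560 values: 520 kept their direction and side of the threshold, 10 lost the call, 10 gained it and 20 changed sign. None of the changes of sign touched a call. With the replicate block, the number of the 7 genes called went from 2 to 4 in CX3CL1 against no treatment (C1RA and LCN2 added, with 2.92% of all genes higher), from 0 to 2 in CX3CL1+IFN-γ against IFN-γ, and from 0 to 1 for the interaction (C3, adjusted p = 0.0108). Calls over all genes went to 455, 1929, 95, 1369 and 52 with the block in CX3CL1 against no treatment, IFN-γ against no treatment, CX3CL1+IFN-γ against IFN-γ, CX3CL1+IFN-γ against CX3CL1 and the interaction, from 232, 932, 43, 558 and 0. The block changed no call of the 9 genes beyond those given here and in the report. With no filter, 0 of the 7 genes were called for CX3CL1 and 28 of all genes for CX3CL1+IFN-γ against IFN-γ. With only the libraries compared, 20 and 344 genes were called in CX3CL1+IFN-γ against IFN-γ and against CX3CL1, and without replicate 1 of all 4 groups 13 and 264, with 565 for IFN-γ. A pseudocount of 0.1 raised the estimates of low genes, to 6.26 for C4B and 3.02 for SERPING1 with IFN-γ, and to 5.98 and 3.16 in CX3CL1+IFN-γ against CX3CL1, with no call changed. Quantile normalization called 1 gene for the interaction. The cause was not tested.

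Leaving out single libraries gave 0 to 2 of the 7 genes for CX3CL1, 6 to 7 for IFN-γ, and 152 to 268, 530 to 764, 16 to 54, 270 to 668 and 0 to 11 of all genes in the order above, the 11 without untreated replicate 1. The estimate of C4B for CX3CL1 was -0.01 with quantile normalization and between -0.08 and 0.12 over all alternatives, and that of SERPING1 was 0.04 without replicate 1 of all groups and between -0.13 and 0.06. In CX3CL1+IFN-γ against IFN-γ, leaving out 1 library gave -0.03 to 1.04 for C3, -0.72 to 0.37 for C4B, -0.32 to 0.48 for CFB -0.17 to 0.39 for SERPING1, 1.05 to 2.93 for LCN2 and 1.01 to 1.96 for SAA3. For the interaction the ranges were -0.72 to 0.37 for C4B, -0.14 to 0.42 for SERPING1 and -1.86 to 0.02 for LCN2. With 3 libraries a group, no outlier test within a group was made, and the depth behind low values is unknown.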
